A study of Mus musculus with 8 samples.

Results

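The response described here is that of wild-type mouse macrophages to dimethyl itaconate (DI), a cell-permeable ester of itaconate that reacts with cysteine residues. The comparison sets 2 DI-treated wild-type libraries against 2 untreated wild-type libraries, 4 of the 8 libraries of the series, and covers the 11079 genes that passed a filter on low counts out of 22165 listed. All 8 libraries hold polyadenylated RNA of bone marrow-derived macrophages of C57BL/6 mice, grown from bone marrow with the growth factor M-CSF for 7 days. The treated wild-type cells received 250 µM DI for 12 h, and the untreated wild-type cells received none. The series holds the same pair of conditions in macrophages of Nrf2-/- mice, which lack the transcription factor NRF2 throughout the animal. These knockout libraries showed for some genes how the wild-type response differs. They also entered the low-count filter, the scaling and the estimate of spread in the main test of the wild-type response. No cell was given an inflammatory stimulus according to the labels. The title of the series names electrophilic stress and inflammatory responses mediated by IκBζ, the protein encoded by Nfkbiz.

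In resting cells the adaptor KEAP1 holds NRF2 in the cytoplasm and directs its destruction. Electrophiles such as DI modify cysteines of KEAP1, after which NRF2 enters the nucleus, pairs with small MAF proteins and binds antioxidant response elements near genes of glutathione synthesis, peroxide removal, detoxification, NADPH supply and iron storage. Macrophages also keep a low tone of interferon signalling, read by interferon-stimulated response elements, and carry receptors that sense microbes, chemokines and nucleotides.

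Deposited counts per wild-type library came to 11217220 and 15680671 untreated and to 6739038 and 11391531 with DI, within a range of 5554288 to 15680671 over the series. Across genes, both libraries of each group agreed at r = 0.977 to 0.984, and their counts differed by more than counting error (chi-square of 15.2 to 45.3 per degree of freedom). Whether these 2 libraries stem from different animals or cultures is left unsaid by the labels, and p-values here therefore reflect library-to-library spread that may be technical. All 21 macrophage markers listed were present in each wild-type library and summed to 14034 and 13832 CPM untreated and to 15164 and 15400 CPM with DI. All levels here are in CPM, which scales the counts of a gene to the scaled size of its library. Neutrophil markers summed to 377 and 389 CPM untreated and to 252 and 325 CPM with DI, and stromal markers to 165 and 203 CPM untreated and to 213 and 234 CPM with DI. Dendritic cell markers summed to 16.9 to 20 CPM and lymphocyte, mast cell and erythroid markers to 0.838 to 9.18 CPM per wild-type library, with Cd209a, Cd8a, Ncr1, Mcpt4, Tpsb2, Hbb-bs, Hbb-bt, Alas2 and Slc4a1 at 0 in all 4. Of 28 tested markers of other cell types none was firmly called and 1, the stromal Acta2, was called; at an unadjusted p under 0.05, 2 were higher and 9 lower, 4 of the lower ones among the 8 tested neutrophil markers, whose median log2 fold change was -0.75. The 10 most abundant genes took 8.68 and 7.73% of counts in untreated and 13.3 and 13.2% in DI libraries, and mitochondrial transcripts took 1.30 and 1.37% in untreated and 1.59 and 2.11% in DI libraries. The part of these differences in the results below was not tested. In such bulk RNA, fewer cells of a type and less RNA per cell cannot be told apart.

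At an adjusted p under 0.05 in edgeR's quasi-likelihood test, 721 genes were called higher with DI (6.51% of those tested) and 962 lower (8.68%). These counts depended on single libraries: they were 290 and 514 without untreated replicate 2, 391 and 662 without untreated replicate 1, 495 and 506 without DI replicate 1, and 471 and 571 without DI replicate 2. A gene is therefore said to have risen or fallen, or to be firmly called, only where it passed in the same direction with all libraries and in each of the 4 fits without 1 wild-type library. By this rule 228 genes rose (2.06%) and 282 fell (2.55%). All 510 were called in the same direction under each of 8 other settings and without each of the 4 knockout libraries. Fewer stayed firmly called where that rule was applied under another setting: 187 of the 510 with the wild-type libraries alone, where 97 genes rose and 93 fell in all, 361 with the replicate number as a block, 416 with the A-rich trend described next removed and 484 to 510 under the others. With total counts in place of TMM scaling, 557 genes were called higher and 1208 lower, so that 31.6% of calls were higher against 42.8%, and the median of all genes moved from -0.02 to -0.10 on the log2 scale. Libraries made with an oligo-dT primer can also start inside A-rich sequence. Genes with at most 9 A in any 15 coding bases made up 42.9% of genes tested, 56.1% of those that rose and 28.4% of those that fell. With that trend removed, 690 genes were called higher and 851 lower.

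**Figure D1:**
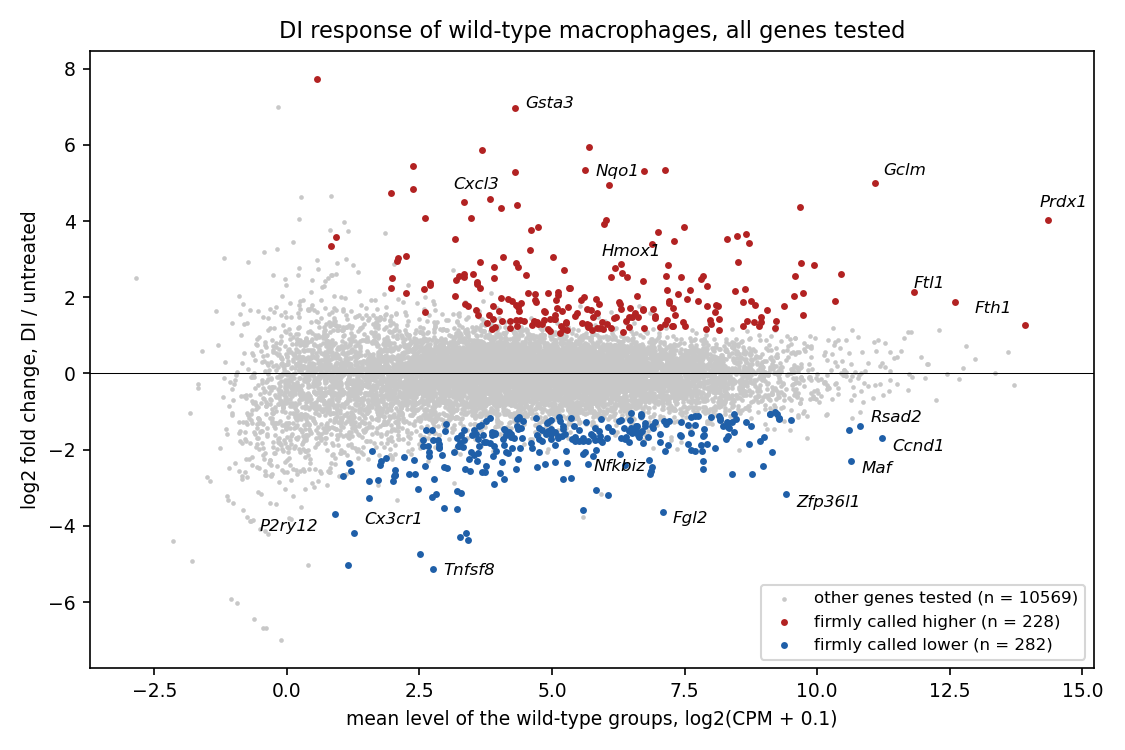
Each point is a gene tested in wild-type macrophages, with the mean level of both wild-type groups as log2(CPM + 0.1) on the x axis and the log2 fold change of DI over untreated on the y axis. Red points mark the 228 genes that rose and blue points the 282 that fell, grey points all others; Prdx1 and Gclm rose from levels already above most genes, and Zfp36l1, Maf and Ccnd1 fell from high levels.

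Promoter sequence is shown for genes of the NRF2 and interferon groups because the results turn on these 2 opposite movements. RefSeq windows (GRCm38.p6) were available for 8802 of the tested genes, and the 250 bases upstream of each start were searched on both strands. The letters TGACNNNGC, the core of the antioxidant response element, occurred in 13.9% of tested genes, in 23.1% of 186 genes that rose, in 15% of 220 that fell, and in 10.2% of all 32851 windows. Among firmly called genes of the NRF2 group, 9 of 33 held them. The 4 of these with the smallest p are printed 5′ to 3′ on the strand of the gene, with the match in capitals.
Gclm, chr3:122245387-122245466, plus strand: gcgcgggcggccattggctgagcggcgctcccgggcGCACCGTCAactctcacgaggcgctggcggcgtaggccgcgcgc
Prdx1, chr4:116685430-116685509, plus strand: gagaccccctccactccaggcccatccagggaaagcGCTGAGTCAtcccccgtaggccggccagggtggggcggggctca
Gsta3, chr1:21240428-21240507, plus strand: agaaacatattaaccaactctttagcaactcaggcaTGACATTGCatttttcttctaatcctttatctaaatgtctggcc
G6pdx, chrX:74428894-74428973, minus strand: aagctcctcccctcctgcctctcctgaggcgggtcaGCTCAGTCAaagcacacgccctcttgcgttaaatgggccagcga
The match ended 125, 124, 112 and 48 bases before the RefSeq start used for these 4 genes, in that order. For G6pdx the stretch lies inside the gene as placed by GENCODE (chrX:74409483-74429194, minus strand), so that RefSeq start is an internal one. In Gclm, Prdx1 and G6pdx the letters read on the strand opposite to the gene.

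A core of the interferon-stimulated response element, GAAA followed after any 2 bases by GAAA, occurred in 3.60% of tested genes, in 1.61% of genes that rose, in 13.2% of genes that fell and in 2.98% of all windows. Among firmly called interferon genes with a window, 6 of 8 held it. Of these, 3 are printed in the same way. Iigp1, a firmly called interferon gene with a smaller p in edgeR than these 3, is not among them.
Gbp2, chr3:142620569-142620648, plus strand: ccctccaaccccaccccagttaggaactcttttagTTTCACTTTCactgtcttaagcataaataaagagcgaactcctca
Ifi205, chr1:174031845-174031924, minus strand: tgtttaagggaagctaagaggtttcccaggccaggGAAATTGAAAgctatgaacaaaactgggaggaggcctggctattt
Rsad2, chr12:26456528-26456607, minus strand: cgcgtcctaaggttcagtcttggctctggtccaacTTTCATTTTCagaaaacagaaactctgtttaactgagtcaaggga
In Gbp2 and Rsad2 the match reads on the strand opposite to the gene. The stretch of Gbp2 spans the start of the gene as placed by GENCODE, 142620602. Both sets of letters are short, overlap with other elements and mark no measured binding. Most genes that rose or fell held neither.

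Genes of the NRF2 group were frequent among those that rose. Of 134 tested members of 8 lists, 41 rose and none fell (2 were called lower in edgeR with all libraries, and 9 were lower at an unadjusted p under 0.05). Their share of 30.6% stands beside 2.06% over all genes. The group's median log2 fold change was 0.48, against -0.02 over all genes tested, so the rise was carried by a subset.

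Glutathione synthesis had the highest median of any list, 3.42, and 6 of its 11 tested genes rose. Gclm (chr3:122245557-122270732), the modifier subunit of glutamate-cysteine ligase that makes the first step, went from 129.7 and 134 CPM in the untreated libraries to 4139.8 and 4286 CPM with DI, a log2 fold change of 5.0 ± 0.24 (edgeR adjusted p = 6.94e-07). Its catalytic partner Gclc went from 73.2 and 76.2 to 1220.1 and 1890.5 CPM, a change of 4.38 ± 0.27 (edgeR adjusted p = 3.02e-06). Both subunits were higher in each DI library by far more than the gap between libraries of a group, although the DI libraries of Gclc themselves lay apart. Gss, which completes the tripeptide, stood at 3.32 and 3.62 CPM untreated and at 46.8 and 52.7 CPM with DI, a change of 3.83 ± 0.25 (edgeR adjusted p = 3.3e-06). Slc7a11 imports cystine, the source of the cysteine, and rose from 4.72 and 3.69 to 131 and 129 CPM, a change of 4.96 ± 0.31 (edgeR adjusted p = 3.02e-06). Gsr, which regenerates reduced glutathione, rose from 80.3 and 63.5 to 907 and 635 CPM and Ggt5, a gamma-glutamyltransferase, from 0.437 and 1.16 to 18.9 and 19.7 CPM, a change of 4.51 that was 5.42 without untreated replicate 2. All steps from cystine entry through ligation to recycling thus had a member that rose.

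Among 15 tested glutathione transferases, which attach glutathione to electrophiles, 4 rose. Gsta3 had 0.35 and 0.259 CPM untreated, which is 4 counts in each library, and 36.8 and 41.5 CPM with DI. Its log2 fold change of 6.98 ± 0.50 rests on those few untreated counts (edgeR adjusted p = 8.86e-06). Gstm1 rose from 21.4 and 16.4 to 119 and 160.3 CPM and the microsomal Mgst1 from 17.9 and 19.4 to 130.4 and 124 CPM. These families hold close copies, and how the counting divided reads among copies is not known. The median of this list was 0.15, and the other 11 members were not firmly called.

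In the thioredoxin and peroxiredoxin list 6 of 22 genes rose. Prdx1, a peroxidase of the cytosol, climbed from 2768 and 2068 to 40749 and 38283 CPM, a log2 fold change of 4.03 ± 0.25 (edgeR adjusted p = 3.02e-06). It gained more CPM than any other gene that rose or fell, and the DI libraries differed little from each other. Srxn1, which repairs overoxidized peroxiredoxins, rose from 52.3 and 47.9 to 582 and 578 CPM and catalase, Cat, from 58.8 and 49.9 to 686 and 639.7 CPM. Prdx6 rose from 33.4 and 32.7 to 188 and 169 CPM and thioredoxin, Txn1, from 255 and 256 to 856 and 754 CPM. Txnrd1, thioredoxin reductase, stood at 106 and 257 CPM untreated and 675 and 688 CPM with DI, a change of 1.91 ± 0.34 (edgeR adjusted p = 0.00272). Its untreated libraries lay far apart, yet both were below the DI libraries, and the change was 2.68 without untreated replicate 2.

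A list of enzymes that act on quinones, carbonyls, enones and related compounds followed, with 8 of 23 rising. Not all of its members are reductases. Nqo1, a quinone reductase, went from 2.45 and 2.26 to 85.1 and 106 CPM, a log2 fold change of 5.34 ± 0.34 (edgeR adjusted p = 5.21e-06). Cbr3, a carbonyl reductase, rose from 8.65 and 6.92 to 139 and 98.8 CPM. Ptgr1, which reduces enones including those of prostaglandins, rose from 26.7 and 20.1 to 403 and 268 CPM. For Cbr3 and Ptgr1 the DI library of replicate 1 was the higher, and for Nqo1 that of replicate 2. The esterase Esd and the reductases Akr1a1, Akr1b8 and Akr1c13 also rose, by 2.56, 1.92, 2.03 and 1.74 on the log2 scale.

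The reductases among these enzymes draw on NADPH, and 5 of 17 genes of the pentose phosphate path and other NADPH sources rose. Pgd, the second dehydrogenase of that path, rose from 92.7 and 74.7 to 628 and 655 CPM, a change of 2.94 ± 0.23 (edgeR adjusted p = 8.86e-06). Taldo1, transaldolase, rose from 185 and 207 to 1613 and 1312 CPM, and G6pdx, the entry enzyme, from 58.6 and 68.4 to 245 and 295 CPM. Malic enzyme Me1 changed by 2.54 and isocitrate dehydrogenase Idh1 by 1.69.

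Heme and iron genes gave 8 of 23. Hmox1, which opens the heme ring, rose from 41.1 and 29.8 to 275 and 238 CPM, a log2 fold change of 2.86 ± 0.25 (edgeR adjusted p = 2.47e-05), and Blvrb, a biliverdin reductase, from 88.9 and 75.9 to 375 and 434 CPM. Slc48a1, a heme transporter, rose from 68.1 and 69.2 to 301 and 463 CPM, and ferroportin, Slc40a1, which exports iron, from 109 and 172 to 643 and 666 CPM. The ferritin chains rose less in fold but gained many counts: Fth1 went from 10067 and 8059.7 to 20312 and 23234 CPM and Ftl1 from 2852 and 2512 to 9088 and 10487 CPM, changes of 1.26 ± 0.23 and 1.87 ± 0.22. Alas1, which starts heme synthesis, and the metal transporter Slc11a1 rose by 1.84 and 1.72. Entry, breakdown, storage and export of iron or heme thus each had a member that rose.

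Among the partners and regulators of NRF2, 3 of 15 rose. They were the small MAF genes Maff (4.28 and 4.59 CPM untreated, 18.5 and 13.1 CPM with DI) and Mafg (247 and 320.3 CPM untreated, 567 and 787 CPM with DI) and the autophagy receptor Sqstm1, which binds KEAP1 (323 and 309.9 CPM untreated, 1397 and 1365 CPM with DI). Nfe2l2, which encodes NRF2, did not pass, at 230.3 and 454 CPM untreated and 299 and 416 CPM with DI, a log2 fold change of 0.06 ± 0.31 (edgeR adjusted p = 0.915). Its groups overlapped. Keap1 did not pass either, with 157 and 191 CPM untreated and 215 and 398 CPM with DI, a difference of 0.82 ± 0.28 (edgeR adjusted p = 0.0655). Of 9 ABC transporters tested, the conjugate exporters Abcc1 and Abcc4 rose by 2.56 and 1.90.

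**Figure D2:**
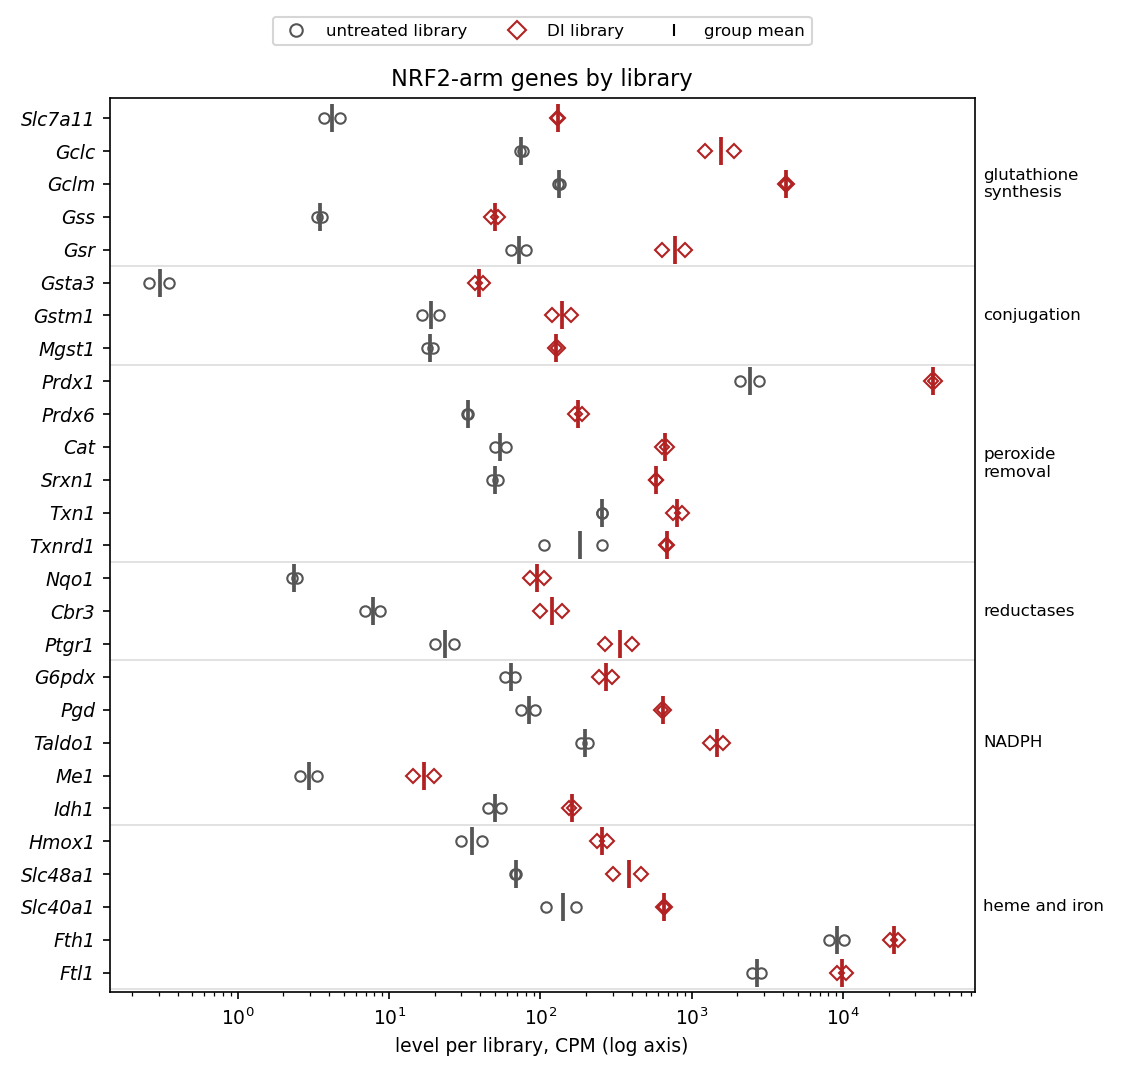
Each symbol is the level of a gene in 1 library in CPM on a log axis, circles for the 2 untreated and diamonds for the 2 DI libraries of wild type, with a vertical bar at the group mean. Only genes that rose are drawn, so the DI libraries lie to the right of the untreated ones by choice of genes. The gap is widest in Gsta3 and narrowest in Fth1 (log2 fold change 1.26).

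Outside detoxification, the largest increases among well-counted genes included Serpinb9b, a serine protease inhibitor of a family that holds granzyme inhibitors, and 2 surface receptors. Serpinb9b rose from 2.27 and 1.1 to 107 and 96.5 CPM. Ednrb (chr14:103814625-103844402), the endothelin B receptor, rose from 5.94 and 7.44 to 294 and 253 CPM, a change of 5.35 ± 0.35 (edgeR adjusted p = 3.3e-06). Procr, the receptor of protein C, rose from 6.9 and 3.62 to 196 and 221 CPM. In Serpinb9b and Procr the untreated libraries differed from each other by a factor that is small beside the treatment difference. Slc22a4, a transporter of ergothioneine and carnitine, rose from 7.17 and 7.76 to 110.3 and 134 CPM. Among the 8 largest gains in CPM were also Creg1, a secreted lysosomal glycoprotein, with a change of 2.14 ± 0.25, the ubiquitin ligase Rnf128 with 2.85 ± 0.28 and the elastase Mmp12 with 2.60 ± 0.23. Mmp12 went from 403 and 386 to 2673 and 2113 CPM. It was 1 of 4 genes that rose among 24 tested in a list around matrix proteases, beside 2.06% of all genes. The others were the protease Mmp8, the urokinase receptor Plaur and the inhibitor Serpinb9b. Serpinb9b is no protease and was itself among the largest increases, and the list was chosen with earlier results of these data known.

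Inflammatory genes moved in both directions. Of 125 tested in 6 lists, 13 rose (10.4%, beside 2.06% of all genes) and 12 fell (9.6%, beside 2.55%). Nfkbiz (chr16:55811375-55838899), an inducible nuclear partner of NF-κB that supports secondary response genes, had 73.9 and 84.3 CPM untreated and 21.8 and 16.3 CPM with DI, a log2 fold change of -2.06 ± 0.24 (edgeR adjusted p = 0.000193). Tnip3, an inhibitor of NF-κB signalling, fell from 119 and 153 to 41 and 37.5 CPM. These were the 2 of 18 NF-κB family genes that fell, and none rose; edgeR called 4 higher with all libraries, 5 were higher at an unadjusted p under 0.05, and DESeq2 called 4 higher. The median of the family was 0.03.

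Cytokine genes gave 3 decreases of 24 tested and no increase; 1 was called higher in edgeR and in DESeq2 with all libraries and 2 were higher at an unadjusted p under 0.05. Tnfsf8, the ligand of CD30, had 12.8 and 13.1 CPM untreated and 0.628 and 0.186 CPM with DI, a change of -5.13 ± 0.47 (edgeR adjusted p = 2.74e-05). The DI levels are 4 and 2 counts, and the change was -5.99 without DI replicate 1 and -4.31 without DI replicate 2, so its size is uncertain. Tnfsf15, the ligand of death receptor 3, fell from 8.83 and 11.3 to 2.51 and 1.4 CPM and Il18 from 52.6 and 34 to 10.4 and 10.3 CPM. Tnf did not pass, with 23.4 and 23.7 CPM untreated and 32.8 and 22.9 CPM with DI, and its groups overlapped. Il1b had 3.32 and 6.79 CPM untreated and 2.67 and 1.77 CPM with DI, a difference of -1.24 ± 0.43 (edgeR adjusted p = 0.0699). Il6 was too low to test, with 3 and 1 counts in untreated and 4 and 1 counts in DI libraries.

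Chemokines split, with 3 of 20 rising and 4 falling. Cxcl3, which attracts neutrophils, rose from 0.961 and 0.97 to 44.1 and 32.8 CPM, a change of 5.29 ± 0.44 (edgeR adjusted p = 1.63e-05). The platelet-type chemokines Pf4 and Ppbp also rose, Pf4 from 208 and 204 to 727 and 691 CPM; the change of Ppbp, 2.46, was 1.84 without untreated replicate 1 and 3.74 without untreated replicate 2. In contrast, the monocyte attractants Ccl7 and Ccl12 fell, Ccl7 from 415 and 319 to 88.3 and 89.8 CPM and Ccl12 from 47 and 41.4 to 8.95 and 7.27 CPM. The interferon-inducible Cxcl11 and the transmembrane chemokine Cxcl16 fell by -2.66 and -1.11, given as signed log2 fold changes. All members that rose are of the CXC type, while those that fell were of both CC and CXC types.

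Genes that make and read eicosanoids, the lipid mediators derived from arachidonic acid, had the second-highest median of the 41 functional lists, 0.86, and 6 of 18 rose. The cyclooxygenases Ptgs2 and Ptgs1 rose from 7.43 and 5.63 to 39.7 and 38.1 CPM and from 19.5 and 19.5 to 84.2 and 71.4 CPM, respectively. Ptger2, a receptor of prostaglandin E2, rose from 4.28 and 3.17 to 30 and 21.9 CPM, a change of 2.80 ± 0.34 (edgeR adjusted p = 0.000226). Pla2g4a, the phospholipase that releases arachidonic acid, Alox5ap, which serves leukotriene synthesis, and Pla2g7, which degrades platelet-activating factor, rose by 1.68, 1.42 and 1.24. Cysltr1, a leukotriene receptor, fell from 147 and 134 to 52.9 and 47.3 CPM. With all libraries edgeR also called 3 further members lower that were not firmly called: the prostaglandin D and thromboxane synthases Hpgds and Tbxas1, at -1.32 and -0.69, and Ptger4, another receptor of prostaglandin E2, at -1.15. Ptges3, a prostaglandin E synthase, and the prostacyclin receptor Ptgir were called higher in the same fit, at 0.99 and 0.95, but not firmly. Substrate release, cyclooxygenases and 1 prostaglandin receptor thus each had a member that rose. Other synthases and receptors were called in both directions or did not pass.

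Immediate early genes gave 4 increases and 2 decreases of 29. Fosl1, a FOS-family subunit of AP-1, rose from 1.31 and 0.97 to 24.5 and 29.5 CPM, a change of 4.57 ± 0.35 (edgeR adjusted p = 8.86e-06). Dusp5, a phosphatase of ERK, rose from 103 and 119.5 to 311 and 442 CPM, and Dusp1 and Myc rose by 1.34 and 1.44. Zfp36l1 (chr12:80107754-80113013), which promotes decay of AU-rich mRNAs, fell from 1199.8 and 1268 to 154 and 121 CPM, 8.98-fold and -3.17 ± 0.28 (edgeR adjusted p = 2.08e-05) on the log2 scale. Klf2, a transcription factor that restrains macrophage activation, changed by -1.19. Atf3, a stress-induced transcription factor, did not pass, at 315 and 362 CPM untreated and 444 and 808 CPM with DI (edgeR adjusted p = 0.0585).

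**Figure D3:**
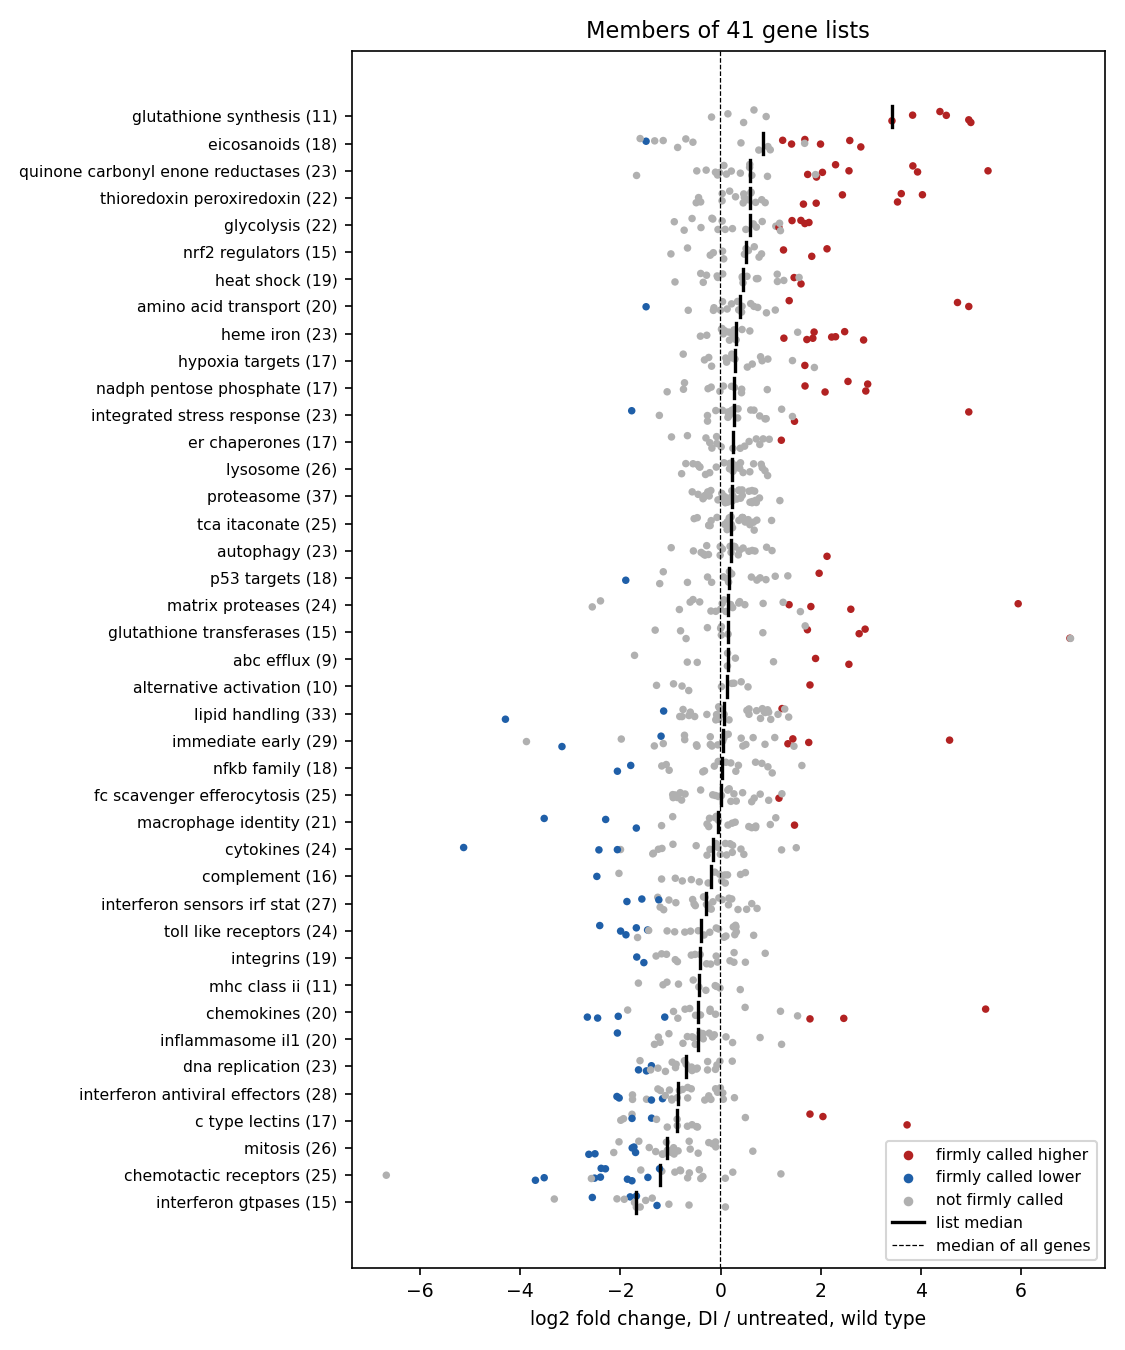
Each point is a tested member of 1 of 41 gene lists (number tested in parentheses), placed by its log2 fold change of DI over untreated in wild type and spread vertically at random; red rose, blue fell, grey was not firmly called, the bar is the list median and the dashed line the median of all genes. Glutathione synthesis has the highest list median, 3.42, and interferon-inducible GTPases the lowest, -1.68.

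Firmly called genes of the interferon lists all fell. Of 70 tested in 3 lists, 11 fell and none rose (15.7% fell, beside 2.55% of all genes). None was called higher by edgeR or by DESeq2 in any of the 3 lists, and 1 was higher at an unadjusted p under 0.05. The median log2 fold change of the 70 was -0.84, and with all libraries edgeR called 32 of the 70 lower. The fall was not uniform. The median was -0.28 in the list of sensors and transcription factors, which also holds receptors and kinases of the pathway. Irf7, Oas3 and Bst2 lay near no change, with log2 fold changes of 0.16, -0.06 and -0.10.

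Among 28 antiviral effectors, 4 fell. Ifit2, an IFIT family inhibitor of translation, had 612 and 1216 CPM untreated and 194 and 242 CPM with DI, a change of -2.07 ± 0.32 (edgeR adjusted p = 0.00126). Mx1, a GTPase that traps viral nucleocapsids, fell from 262 and 400.2 to 85.9 and 76.8 CPM. Rsad2, which makes a chain-terminating nucleotide, fell from 2538 and 2663 to 957 and 1041 CPM, and Ifit3 by -1.16 as a signed log2 fold change. In Ifit2 and Mx1 the untreated library of replicate 2 was much the higher, yet both untreated libraries exceeded both DI libraries. The count of effectors that fell was 8 with DESeq2 and 1 with the wild-type libraries alone.

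The GTPase list had the lowest median of the 41 functional lists, -1.68, and 4 of 15 members fell. Iigp1, an immunity-related GTPase that attacks parasite vacuoles, fell from 181 and 217 to 34.7 and 32.6 CPM, a log2 fold change of -2.56 ± 0.22 (edgeR adjusted p = 2.08e-05). The guanylate-binding protein gene Gbp2 fell from 113 and 145 to 34.1 and 46.1 CPM, Gbp7 from 205 and 285 to 103 and 100.3 CPM and Gbp3 by -1.81 as a signed log2 fold change, or -2.49 without DI replicate 2. These genes lie in families of close copies, so their counts may hold reads of relatives. Of 27 sensors and transcription factors of the interferon system, 3 fell. Ifih1, the RNA sensor MDA5, fell from 239.5 and 467 to 91.6 and 102 CPM, and the DNA-binding PYHIN genes Ifi205 and Ifi204 fell from 164 and 139 to 61.1 and 41.1 CPM and from 1111 and 922 to 448 and 417 CPM. The untreated libraries of Ifih1 lay far apart, while those of Ifi204 and Ifi205 did not.

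Other large decreases reached genes near this system. Fgl2 (chr5:21372642-21378374), a fibrinogen-like protein with prothrombinase activity, fell from 249.6 and 253 to 23.7 and 16.6 CPM, 12.5-fold and -3.65 ± 0.25 (edgeR adjusted p = 5.04e-06) on the log2 scale. Ifit1bl1 fell from 123 and 116 to 13.4 and 12.9 CPM, Slfn9 from 65.4 and 139 to 7.23 and 16.7 CPM and Ifi208 from 52.6 and 89.3 to 12.1 and 9.32 CPM, each a member of a multigene family. The log2 fold change of Slfn9, -3.07, was -2.42 without untreated replicate 2 and -3.80 without DI replicate 2. Mndal, another PYHIN gene, was among the 8 largest losses in CPM, from 1872 and 2729.7 to 824 and 827 CPM.

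Receptors through which macrophages sense chemokines, nucleotides and bacterial peptides changed in 1 direction. Of 25 tested chemotactic receptors 10 fell, beside 2.55% of all genes, and none rose; edgeR called 1 higher with all libraries, as did DESeq2, and 1 was higher at an unadjusted p under 0.05. The median log2 fold change was -1.22, against -0.02 over all genes. The count was 8 with DESeq2, 6 with the replicate number as a block and 5 with the wild-type libraries alone. Neutrophil markers, given above, were also lower in both DI libraries, and their part in this result was not tested.

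Cx3cr1 (chr9:119901616-120069879), the fractalkine receptor, had 14.2 and 14.3 CPM untreated and 0.314 and 1.86 CPM with DI, a change of -3.52 ± 0.44 (edgeR adjusted p = 0.000304). The DI levels are 2 and 20 counts, and the change was -2.89 without DI replicate 1 and -5.42 without DI replicate 2, so its size is uncertain. Ccr2, which reads Ccl7 and Ccl12, fell from 307 and 454 to 88.9 and 66 CPM. The ligands Ccl7 and Ccl12 and their receptor Ccr2 were thus lower. Of other CC chemokines in that list, Ccl2 was called lower with all libraries but not firmly, at -0.94, and Ccl8 was not called, at -0.21. Cxcr4, the receptor of Cxcl12, fell from 67.2 and 40.3 to 19.5 and 19.8 CPM. Formyl peptide receptor Fpr2 fell from 44.5 and 54 to 8.17 and 10.5 CPM, and Fpr1 from 3.58 and 7.44 to 0.943 and 1.12 CPM, a change of -2.40 that was -1.77 without untreated replicate 2. Gpr65, a proton sensor, fell from 392 and 397 to 43.7 and 93.6 CPM with DI libraries that lay apart, a change of -2.52 that was -3.15 without DI replicate 2. The nucleotide receptors P2ry12, P2ry14 and P2ry6 fell as well, P2ry14 from 72 and 69.2 to 20.9 and 20.5 CPM and P2ry6 from 105 and 114 to 44.1 and 50 CPM. P2ry12 had 3.23 and 3.3 CPM untreated and 0.471 and 0.0932 CPM with DI, which is 3 and 1 counts, so its size is uncertain: the change of -3.70 was -4.93 without DI replicate 1 and -2.73 without DI replicate 2.

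Of 24 Toll-like receptor genes and partners, 5 fell, beside 2.55% of all genes, and none rose. None was called higher by edgeR or DESeq2, and 1 was higher at an unadjusted p under 0.05. Nucleic acid receptors of endosomes were among the 5 that fell. Tlr7 (chrX:167304929-167330558), which reads single-stranded RNA, had 165 and 114 CPM untreated and 23.9 and 28.3 CPM with DI, a log2 fold change of -2.41 ± 0.26 (edgeR adjusted p = 0.000109). Tlr8 fell from 444 and 184 to 68.6 and 88.3 CPM with untreated libraries far apart, a change of -2.00 that was -1.23 without untreated replicate 1, and Tlr9, which reads CpG DNA, from 232 and 227 to 68.2 and 55.8 CPM. The lipopolysaccharide co-receptor Cd14 fell from 107 and 93.7 to 30.3 and 32.1 CPM, and Ly86, which supports the Toll-like relative CD180, from 361 and 328 to 120.0 and 131 CPM.

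**Figure D4:**
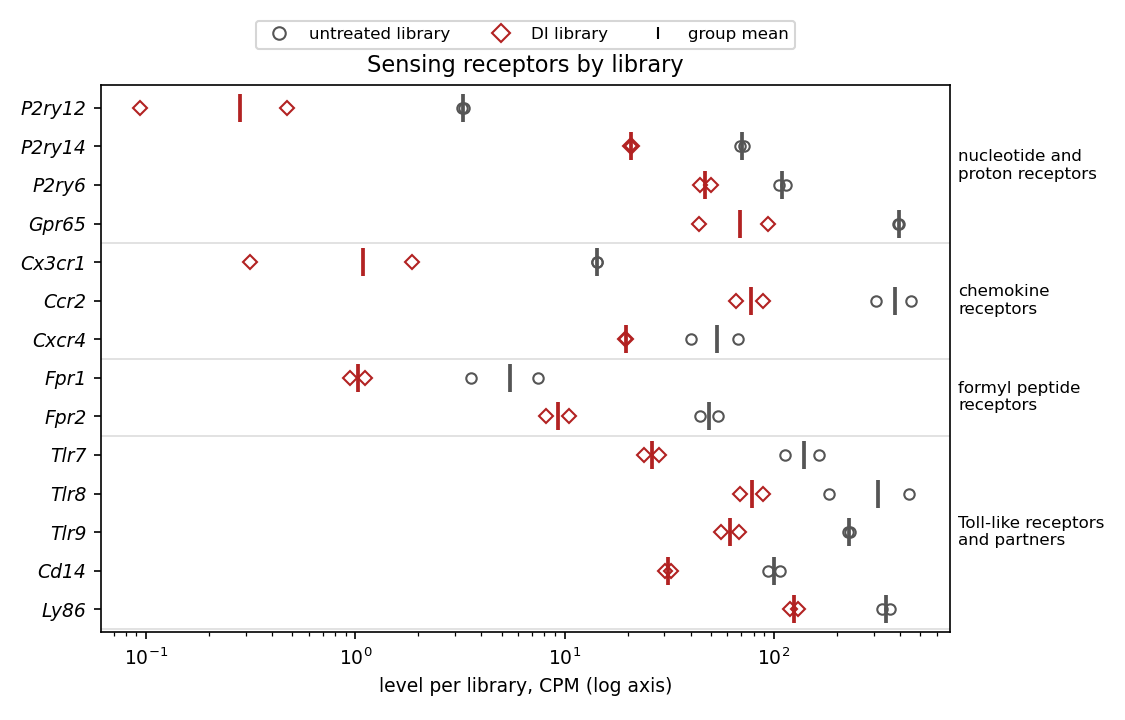
Each symbol is the level of a receptor gene in 1 library in CPM on a log axis, circles for the 2 untreated and diamonds for the 2 DI libraries of wild type, with a vertical bar at the group mean. Only genes that fell are drawn, so the DI libraries lie to the left of the untreated ones by choice of genes. The gap is widest for P2ry12 and Cx3cr1, whose DI levels rest on few counts.

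Over the 10 lists on macrophage state, 9 of 176 tested genes rose (5.11%, beside 2.06% of all genes) and 21 fell (11.93%, beside 2.55%). C-type lectins moved both ways, with 3 of 17 rising and 2 falling. Clec4n, the fungal receptor Dectin-2, rose from 19.7 and 16.2 to 239 and 236 CPM, a change of 3.72 ± 0.25 (edgeR adjusted p = 3.3e-06), and the related Clec4d from 303 and 291 to 1254 and 1197 CPM. The galactose-binding Clec10a rose from 7.51 and 5.76 to 24.7 and 21.1 CPM. The inhibitory receptor Clec12a fell from 621 and 870.2 to 249.9 and 188 CPM, as did Clec4a3 by -1.38 as a signed log2 fold change. The 3 that rose and the 2 that fell did not share a direction of signalling: Clec4n and Clec4d activate, and Clec12a inhibits.

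Among 21 genes of macrophage identity, 3 fell and 1 rose, beside 2.55% and 2.06% of all genes. The list's median of -0.04 lay near that of all genes. Maf, a transcription factor of tissue-type macrophages, fell from 2542 and 2778 to 673 and 412 CPM, a change of -2.29 ± 0.31 (edgeR adjusted p = 0.000484). Cebpb, a transcription factor of inflammatory activation, rose from 277 and 242 to 778 and 665 CPM. Cx3cr1 and Cd14, given above, were the other two that fell. Of 19 integrin genes 2 fell, beside 2.55% of all genes. Itga4 fell from 53.8 and 77.3 to 24 and 17.3 CPM and Itga9 from 43.5 and 54.7 to 16 and 17.9 CPM. Complement regulator Cd55 fell from 14.4 and 12.5 to 3.77 and 1.4 CPM, a change of -2.47 that was -3.22 without DI replicate 1 and -1.80 without DI replicate 2, and Cd5l, a secreted scavenger protein, rose from 163 and 133 to 345 and 319 CPM. No member of the MHC class II list was firmly called, and 2 of 11 were called lower in edgeR and in DESeq2, with 4 lower at an unadjusted p under 0.05. Its costimulatory member Cd86 had 18.6 and 20.1 CPM untreated and 10.5 and 7.17 CPM with DI. Large decreases outside the lists were those of Pcp4l1 (56 and 121 CPM untreated, 4.87 and 9.6 CPM with DI, a change of -3.57 that was -2.92 without untreated replicate 2), the leukocyte cytoskeletal gene Lsp1 (82.8 and 46.1 CPM untreated, 6.75 and 11.7 CPM with DI), the SLAM family receptor Slamf9 (208 and 189.5 CPM untreated, 40.2 and 32.4 CPM with DI) and the transcription factor Pou2f2 (669.8 and 844 CPM untreated, 133 and 112 CPM with DI).

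Of 115 tested metabolic genes in 5 lists, 9 rose (7.83%, beside 2.06% of all genes) and 3 fell (2.61%, beside 2.55%). Of 22 glycolysis genes 5 rose and none fell (none called lower in edgeR, 1 by DESeq2, and 1 lower at an unadjusted p under 0.05), and the list median was 0.58. Slc2a1, the glucose transporter GLUT1, rose from 39.5 and 35.6 to 119.5 and 122 CPM, a log2 fold change of 1.68 ± 0.22 (edgeR adjusted p = 0.000348). Pyruvate kinase Pkm rose from 319 and 282 to 1044 and 999 CPM and phosphoglycerate mutase Pgam1 from 143 and 124 to 424 and 387 CPM. Enolase Eno1 and the lactate exporter Slc16a3 rose by 1.16 and 1.43. Import, late glycolysis and lactate export each had a member that rose.

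None of 25 tricarboxylic acid cycle and itaconate genes was called by edgeR, while 5 were higher at an unadjusted p under 0.05 and DESeq2 called 3 higher. Citrate synthase, Cs, had 41.8 and 41.2 CPM untreated and 61.7 and 69.1 CPM with DI (edgeR adjusted p = 0.0533). Acod1, which makes itaconate, had 42.5 and 61.6 CPM untreated and 89.1 and 83.1 CPM with DI, a difference of 0.72 ± 0.24 (edgeR adjusted p = 0.0627). Of 20 amino acid carriers, the cystine importer described above, the glycine importer Slc6a9 and the large neutral amino acid carrier Slc43a2 rose. Slc43a2 rose from 329 and 339.8 to 692 and 1038 CPM, and Slc7a7, a cationic amino acid exporter subunit, fell from 15 and 14.4 to 5.5 and 5.03 CPM. Lipid genes gave 1 increase, the fatty acid-binding Fabp4 (89.3 and 66.9 CPM untreated, 189.8 and 176 CPM with DI), and 2 decreases of 33. Over all genes 2.06% rose and 2.55% fell. With all libraries edgeR called 8 lipid genes higher and 3 lower. Lipg, a lipase, fell from 13.8 and 22.2 to 1.57 and 0.466 CPM, a change of -4.30 that was -5.20 without DI replicate 1 and -3.49 without DI replicate 2, and the oxysterol receptor Nr1h3 from 25.4 and 31.2 to 13.4 and 12.5 CPM. Gatm, which starts creatine synthesis, was among the 8 largest losses in CPM, from 876 and 823 to 230.4 and 87.5 CPM with DI libraries far apart, a change of -2.42 that was -3.24 without DI replicate 1.

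Few genes of protein quality control were firmly called. Of 145 tested genes in 6 lists, 6 rose (4.14%, beside 2.06% of all genes) and 1 fell. Of the 6, Slc7a11 and Sqstm1 were also counted in the NRF2 group and Cebpb among macrophage identity genes. Psmb5, a proteasome subunit, had 18.1 and 15.5 CPM untreated and 35.5 and 40.7 CPM with DI, and no proteasome gene of 37 was firmly called, while edgeR called 3 and DESeq2 6 higher with all libraries and 10 were higher at an unadjusted p under 0.05. Of 19 cytosolic chaperone genes 2 rose, Dnajb4 from 41.2 and 35.5 to 120.0 and 92.5 CPM and Hspa1b from 2.36 and 3.49 to 9.9 and 8.29 CPM. Hspa1a, the near-identical neighbour of Hspa1b, had 2.1 and 2.33 CPM untreated and 4.71 and 5.87 CPM with DI, and reads of this pair may be shared. Manf, an endoplasmic reticulum stress protein, rose from 53.3 and 52.3 to 133 and 112 CPM. Nupr1, a stress-induced chromatin regulator, fell from 69.7 and 63.9 to 22.5 and 16.8 CPM. Ddit3, which encodes CHOP, had 390.2 and 321 CPM untreated and 146 and 159 CPM with DI, a difference of -1.22 ± 0.25 (edgeR adjusted p = 0.00734) that did not pass without untreated replicate 1 (-1.08, edgeR adjusted p = 0.0502). No gene of 26 in the lysosome list was firmly called, with edgeR calls of 3 higher and 1 lower, DESeq2 calls of 3 and 2, and 5 higher and 2 lower at an unadjusted p under 0.05. Its member with the smallest p, the acid lipase Lipa, had 1844 and 2537 CPM untreated and 4701 and 3703 CPM with DI.

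Cell division genes changed in 1 direction. Of 26 genes in a list of mitosis genes and cyclins 5 fell, and of 23 DNA replication genes 3 fell, beside 2.55% of all genes. None in either list was called higher by edgeR or DESeq2 or was higher at an unadjusted p under 0.05. The list medians were -1.07 and -0.69. The D-type cyclins Ccnd1 and Ccnd2, which answer to growth factors such as M-CSF, were counted in the first list. Ccnd1 fell from 3704 and 3635 to 1442 and 821 CPM and Ccnd2 from 545 and 606 to 103 and 83 CPM, a change of -2.63 ± 0.24 (edgeR adjusted p = 2.72e-05). Both DI libraries of Ccnd1 lay below both untreated ones, although they differed from each other. The mitotic kinesin Kif11 fell from 15.5 and 18.9 to 3.3 and 2.8 CPM. DNA ligase Lig1, helicase subunit Mcm4 and polymerase subunit Pola1 fell by signed log2 fold changes of -1.64, -1.48 and -1.38. Among 18 targets of p53, the stress cytokine Gdf15 rose from 84.8 and 67.5 to 284 and 311 CPM and Sesn1 fell from 30.3 and 17 to 6.44 and 6.24 CPM.

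For 19 tested genes at the core of the study, the wild-type response was set against that of Nrf2 knockout cells by an interaction term, which called 836 of all genes (7.55%). It called 9 of the 19. For Gclm the knockout libraries held 33.4 and 39.9 CPM untreated and 91.4 and 90.2 CPM with DI, so that its log2 response was smaller by 3.69 ± 0.30 than in wild type (edgeR adjusted p = 0.00022). Prdx1 held 1175 and 1249 CPM untreated and 1739 and 1438 CPM with DI in knockout cells, a difference between genotypes of 3.64 ± 0.33 (edgeR adjusted p = 0.000226). Gclc, Srxn1 and Slc7a11 differed in the same direction, although the call of Slc7a11 was lost without knockout untreated replicate 2 (1.52, edgeR adjusted p = 0.504).

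Hmox1 is an NRF2 target for which no such difference passed. It held 15.4 and 16.4 CPM untreated and 63.5 and 81.9 CPM with DI in knockout cells, and the genotypes differed by 0.67 ± 0.35 (edgeR adjusted p = 0.24). Txnrd1 differed by -0.39 ± 0.47, less than its standard error, with 27.3 and 30.6 CPM untreated and 135 and 151 CPM with DI in knockout cells. A p that misses the threshold does not show equal responses. Nqo1 had 0 counts in both untreated knockout libraries and 1.28 and 0.405 CPM with DI there, so no fold is given.

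Nfkbiz held 166 and 158 CPM untreated and 93.8 and 115 CPM with DI in knockout cells. Its wild-type response minus that of knockout cells was -1.43 ± 0.33 on the log2 scale (edgeR adjusted p = 0.0233). This call was lost without untreated replicate 2 or DI replicate 2 of wild type (-1.34 and -1.21, edgeR adjusted p = 0.0768 and 0.0623) and without either untreated knockout library (-1.44 and -1.40, edgeR adjusted p = 0.0929 and 0.0992). Acod1 differed by 1.96 ± 0.35 (edgeR adjusted p = 0.00713), with 60 and 47.4 CPM untreated and 24.7 and 21 CPM with DI in knockout cells. Hspa1a and Ddit3 went the other way, with wild-type minus knockout responses of -4.53 ± 0.44 and -2.85 ± 0.36. Ddit3 changed in opposite directions, by -1.22 in wild type and 1.63 in knockout cells. Hspa1a was higher with DI in both, by 1.26 and 5.79. Hspa1a reached 132 and 181 CPM in the DI libraries of knockout cells, from 3.5 and 2.28 CPM untreated.

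**Figure D5:**
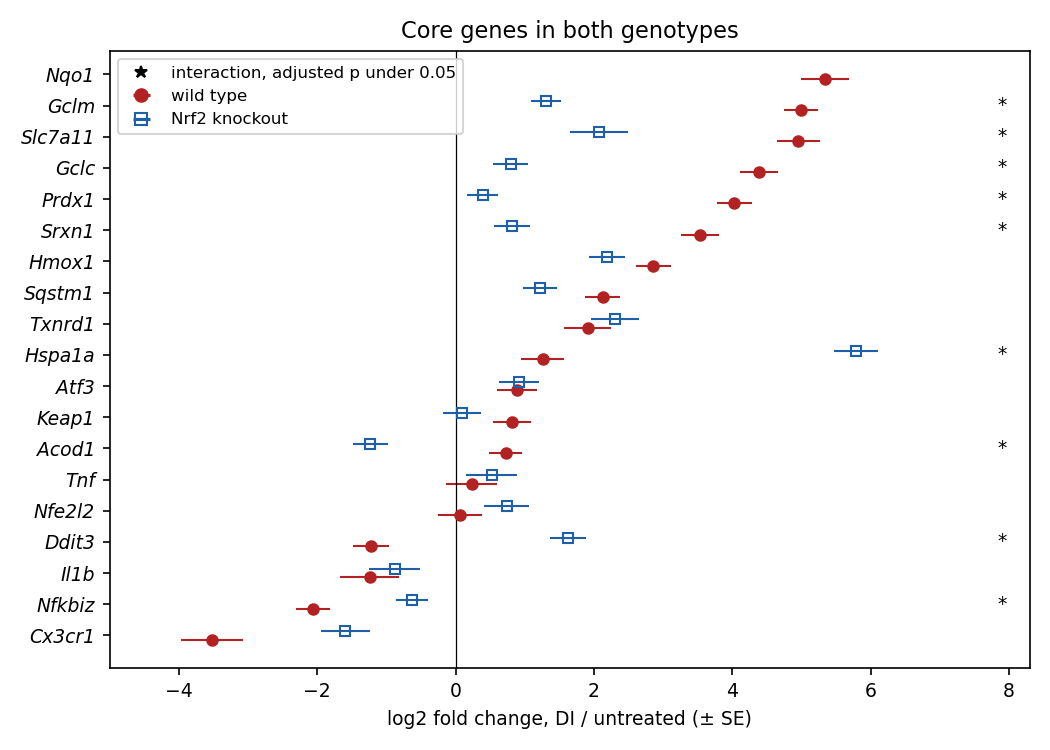
For 19 core genes, the log2 fold change of DI over untreated is drawn with its standard error in wild type (filled circles) and in Nrf2 knockout cells (open squares, fitted from 2 libraries per group); an asterisk marks the 9 genes whose responses differed between genotypes. No knockout point is drawn for Nqo1, which had 0 counts in untreated knockout libraries; Gclm, Slc7a11, Gclc, Prdx1 and Srxn1 lie to the right in wild type, Hspa1a and Ddit3 to the left.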

How the data were processed

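Poly(A) RNA was read near transcript 3′ ends: per the labels' protocols, barcoded priming on oligo-dT (15 T), pooling and 12 cycles of PCR gave strand-specific libraries. No molecular identifier is described, so copies of a molecule cannot be told from separate molecules. The authors deposited unnormalized counts for 22165 Ensembl genes. STAR, HTSeq, DESeq2 and the build mm10 appear in the submitters' processing notes with no versions, and no annotation release is named there. Symbols and positions came from GENCODE M21 (GRCm38), which matched 21745 genes, and promoter windows from RefSeq.

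Groups came from the labels. Genes were filtered with filterByExpr by group (minimum count 10), scaled by TMM and tested in R 4.3.3 with the robust quasi-likelihood F-test of edgeR 4.0.16 on all 8 libraries with 1 mean per group, and p-values were adjusted by Benjamini-Hochberg over 11079 genes. Standard errors are the log2 fold change divided by the square root of F. In a fit without 1 library the remaining library of its group is assumed to vary like the others. Alternatives were DESeq2 1.42.0 (test and size factors), upper quartile and total-count scaling, no filter, the wild-type libraries alone, the replicate number as a block, and, added after the data were seen, removal of a trend for A-rich coding sequence and leaving out knockout libraries. The steps were tested on simulated data.

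Named genes were the 12 largest increases and 12 largest decreases among firmly called genes that had an approved-style symbol, averaged 50 CPM or more in their higher group, held 10 or more counts in their lower group and had libraries that do not overlap, the 3 firmly called members with the smallest p per list (or, failing that, the member with the smallest p), 20 core genes, and the 8 largest gains and losses in CPM. Other names were chosen after their values were seen. Members and the 47 lists were chosen with earlier results of these data known. The values of 2 listed genes are not reported here, although the counts over their lists include them.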

Additional observations from a re-analysis of the deposited data

Results flagged for a closer look

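The DI response of 9 core genes differed between wild-type and Nrf2 knockout macrophages by the interaction term of edgeR's quasi-likelihood test, adjusted over all genes. The response, as log2 fold change in wild type minus that in knockout, was larger in wild type by 3.69 for Gclm (adjusted p = 0.00022), 3.64 for Prdx1 (adjusted p = 0.000226), 3.58 for Gclc (adjusted p = 0.000292), 2.88 for Slc7a11 (adjusted p = 0.012) and 2.72 for Srxn1 (adjusted p = 0.00177). All 5 serve glutathione synthesis or peroxide removal. For Acod1 the difference was 1.96 (adjusted p = 0.00713), with responses of 0.72 in wild type and -1.23 in knockout cells. It was -1.43 for Nfkbiz (adjusted p = 0.0233), -2.85 for Ddit3 (adjusted p = 0.00139) and -4.53 for Hspa1a (adjusted p = 0.000284). Ddit3 changed by -1.22 in wild type and 1.63 in knockout cells, and Hspa1a by 1.26 and 5.79. Without knockout untreated replicate 2 the difference of Slc7a11 was 1.52 and was not called. Nfkbiz lost its call without either untreated knockout library, wild-type untreated replicate 2 or wild-type DI replicate 2.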

How the results depend on the processing

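Without 1 of the 8 libraries each, between 290 and 745 genes were called higher and between 506 and 1001 lower. Genes firmly called higher and lower numbered 97 and 93 with the wild-type libraries alone, where 187 of the 510 stayed firmly called and all 510 stayed called. Firmly called lower genes numbered 486 with no filter on low counts. Of 111 named calls, 110 or 111 were kept under each setting with all libraries and 107 to 110 without 1 library. Same-numbered libraries of the wild-type groups deviated together at r = 0.17 and those of other groups at -0.09 to 0.11, so the numbers are not treated as pairs. With the replicate number as a block, 703 genes were called higher and 971 lower, 181 and 191 of them firmly.

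Changes of sign occurred only in values that passed no test. With the A-rich trend removed, Car2 was at 0.02, and the differences between genotypes were 0.38 for Atf3, 0.068 for Il1b and 0.048 for Txnrd1. Nfe2l2 was at -0.018 with total counts, and Atf3 differed between genotypes by 0.10 with upper quartile factors. Without 1 library each, log2 fold changes ranged from -0.59 to 0.19 for Car2, from -0.35 to 0.63 for Nfe2l2 and from -0.0034 to 0.50 for Tnf. Differences between genotypes ranged from -0.51 to 0.36 for Atf3, from -0.83 to 0.58 for Tnf, from -0.77 to 0.26 for Il1b and from -0.90 to 0.38 for Txnrd1. The cause was not tested. Between 7 and 10 of 19 core genes had a called difference between genotypes. The 2 libraries per group and untreated levels of a few counts, as for Gsta3 and Slc6a9, limit the precision of the largest folds.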

Other observations

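Some further genes, outside the lists, were chosen after their values were seen, so they stand for no group. The metallothionein Mt1 went from 61.1 and 42.6 CPM in untreated to 224 and 250.1 CPM in DI libraries of wild type, a change of 2.19 ± 0.27 (edgeR adjusted p = 0.000263), Mt2 went from 6.73 and 3.75 to 34.6 and 37 CPM, and the zinc exporter Slc30a1 from 37.1 and 28.5 to 135 and 108 CPM. In knockout cells Mt1 and Mt2 were also higher with DI, by 1.08 and 1.68, and the difference between genotypes did not pass for either (edgeR adjusted p = 0.087 and 0.147). Among enzymes outside the lists, these 5 rose: cytochrome b5, Cyb5a, from 55 and 63.4 to 712 and 795 CPM, the glycogen-branching enzyme Gbe1 from 22.8 and 29.6 to 239 and 342 CPM, the acetyl-CoA synthetase Acss2 from 1.49 and 1.55 to 28.7 and 33.5 CPM, glutamine synthetase, Glul, from 135 and 121 to 618 and 531 CPM and monoamine oxidase A, Maoa, from 3.23 and 5.76 to 49.6 and 36.8 CPM. For these 5 the response differed between genotypes (edgeR adjusted p = 0.000279, 0.00115, 0.0029, 0.00286 and 0.0013), with knockout changes of -0.12, 0.16, 0.09, 0.08 and -0.59. The channel gene Panx1 rose from 3.67 and 2.98 to 50.1 and 40.4 CPM and Il1f9, which encodes the cytokine IL-36γ, from 1.31 and 1.49 to 17.4 and 15.5 CPM.

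Among decreases, the VEGF receptor Kdr went from 77.5 and 100.1 to 20.3 and 19.2 CPM, a change of -2.17 ± 0.24 (edgeR adjusted p = 0.000129), and its relative Flt1 from 13.4 and 16.5 to 2.98 and 4.75 CPM. The DNA repair and replication checkpoint genes Brca1, Brip1, Clspn and Timeless fell by signed log2 fold changes of -1.91, -1.91, -2.13 and -2.64, and Timeless was at -3.50 without DI replicate 2. The leukocyte signalling genes Ptpn6, a phosphatase of inhibitory receptors, and Vav1, an exchange factor, fell from 325 and 435 to 105 and 105 CPM and from 158 and 148 to 52.8 and 71.9 CPM, and the actin regulator Coro1a from 135 and 124 to 36.9 and 54.1 CPM. The inhibitory receptor Cd300lf fell from 323 and 271 to 78.2 and 84.9 CPM. Stat4, a transcription factor that signals for interleukin 12, fell from 4.54 and 5.76 to 0.471 and 0.559 CPM. These DI levels are only a few counts, so the size of the change is uncertain. In knockout cells Stat4 differed by 0.02, and the difference between genotypes passed (edgeR adjusted p = 0.00913) but rests on the same few counts. Of the PYHIN family, 3 genes outside the lists were picked: Ifi209 went from 432 and 433 to 175 and 161 CPM, Ifi213 from 100.5 and 115 to 44.9 and 46.2 CPM and Ifi206 from 305 and 267 to 136 and 126 CPM, with shared reads possible among such copies. The relatives Ifi203 and Aim2 were called lower with all libraries (-1.14 and -1.03) but not firmly.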
